A study of Homo sapiens with 20 samples.

Results

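The change from 2 to 6 h that A549 cells showed with both inducers of the study was measured as the mean of the 6 h groups minus the mean of the 2 h groups. A549 is an established cell line from a human lung adenocarcinoma. The cells were given extracellular ATP (eATP, 0.5 mM) or TGF-β (10 ng/mL), and their polyadenylated RNA was sequenced after 2 or 6 h. The 4 treated groups, ATP2, ATP6, TGF2 and TGF6, held 4 libraries each, so 16 of the 20 libraries of the series entered the comparison. The 4 untreated control libraries carry no time in the labels and stayed out of the fit, so time under the inducer, time in culture and handling at the 2 time points cannot be told apart. Labels do not say that the replicates were separate cultures, so the p-values measure how far these libraries spread, and that spread may be technical. Genes with at least 0.1 FPKM (fragments mapped, scaled for transcript length and library depth) in 4 or more of the 16 libraries were tested, which left 19523 of 58825 genes, 13466 of them protein coding. At the edge of this filter, 660 genes reached 0.1 FPKM in exactly 4 libraries and 918 in exactly 3, with median levels of 0.0656 and 0.0508 FPKM.

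As background, eATP opens P2X channels and activates P2Y receptors at the cell surface, and TGF-β activates receptor kinases that phosphorylate SMAD proteins. Both also feed into MAP kinase signaling. Signals of this kind switch on immediate early genes, whose transcripts are made without new protein synthesis and decay fast. Slower programs follow, among them feedback inhibitors, secreted factors and cell cycle genes.

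The treated libraries held 56187614 to 75050437 counts. Replicate 1 of TGF2 stood apart from its group: the SD over genes of its deviation from the other replicates was 0.709 on the log2 scale, against 0.361 to 0.455 in the other 19 libraries, and its deviation fell with transcript length (r = -0.436 over 14660 genes, not independent of each other). Length relations were also seen in replicate 3 of control, ATP6 and TGF6 (r = -0.304, -0.254 and -0.218). Replicate 4 of these groups had r = 0.165, 0.179 and 0.238. Replicates 2 and 3 of TGF2, set in part against replicate 1, had r = 0.293 and 0.327. TGF2 replicate 1 was kept in the fit, and counts over all genes that it moved by more than 1.5 times are also given without it. Where leaving out 1 library moved the count of a gene list by more than 1.5 times, brackets give the count without that library or, for 2 or more such libraries, the range over the 16 fits that left out 1 library each. Keratin 18 (KRT18) and ALDH1A1, both strongly expressed in A549, stood at 674 to 1250 and 3360 to 3950 FPKM in the 16 libraries. Other A549 markers were lower, such as EPCAM at 4.48 to 6.99 and MUC5AC at 0.709 to 4.98 FPKM. SCGB1A1 of airway secretory cells, CD3E of lymphocytes and EMCN of endothelium had a count of 0 in all 16. Other members of those marker lists were detected, among them CD68 at up to 6.22, CD14 at up to 5.47, ESAM at up to 3.63 and TP63 at up to 1.76 FPKM.

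In the mean of both inducers, 1551 genes were higher and 1830 lower at 6 h, which is 17.3% of all genes tested (7.94% higher, 9.37% lower; edgeR's quasi-likelihood test, adjusted p under 0.05). With eATP alone 1070 genes were higher (5.48%; 1759 without TGF2 replicate 1, which enters through the shared spread) and 1206 lower (6.18%), and with TGF-β alone 972 were higher (4.98%) and 1211 lower (6.2%). Scaled by library totals alone, the TGF-β comparison called 681 higher and 1424 lower. A mean can pass the test through 1 inducer, so a gene was said to move the same way only where it was called in the mean and with each inducer, with the same sign. By this rule 249 genes were higher at 6 h with both inducers (1.28%) and 454 were lower (2.33%). Without TGF2 replicate 1 these counts were 432 and 684, and they held 233 and 436 of the genes above. The eATP and TGF-β comparisons share no library but share the estimate of spread. The 249 genes were 23.3% of those higher with eATP and 25.6% of those higher with TGF-β, and the 454 genes were 37.6% and 37.5% of those lower. Another 155 genes were called with both inducers in opposite directions, 77 of which rose with eATP and fell with TGF-β. The remaining calls in the mean rested on eATP alone in 1006 genes, on TGF-β alone in 956 and on neither inducer taken singly in 695.

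Falls were larger than rises. The median log2(FC) was 0.51 for the 249 genes and -0.84 for the 454, beside -0.01 over all genes tested. A change of at least 1 on the log2 scale was seen in 24 of the 249 and 164 of the 454. All 4 libraries at 6 h lay on 1 side of all 4 at 2 h, with each inducer, in 218 of the 249 and 398 of the 454, beside 5.37% of all genes tested. These genes were chosen by tests on the same libraries, which favors such separation, so it is not added support. The sizes of the change with the 2 inducers differed by the test of the difference, which 5.31% of all genes passed, in 79 of these 703 genes, which are 3.6% of those tested, being larger with eATP in 42 and with TGF-β in 37. Without TGF2 replicate 1 the difference passed in 112 of the 703, beside 8.87% of all genes.

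**Figure D1:**
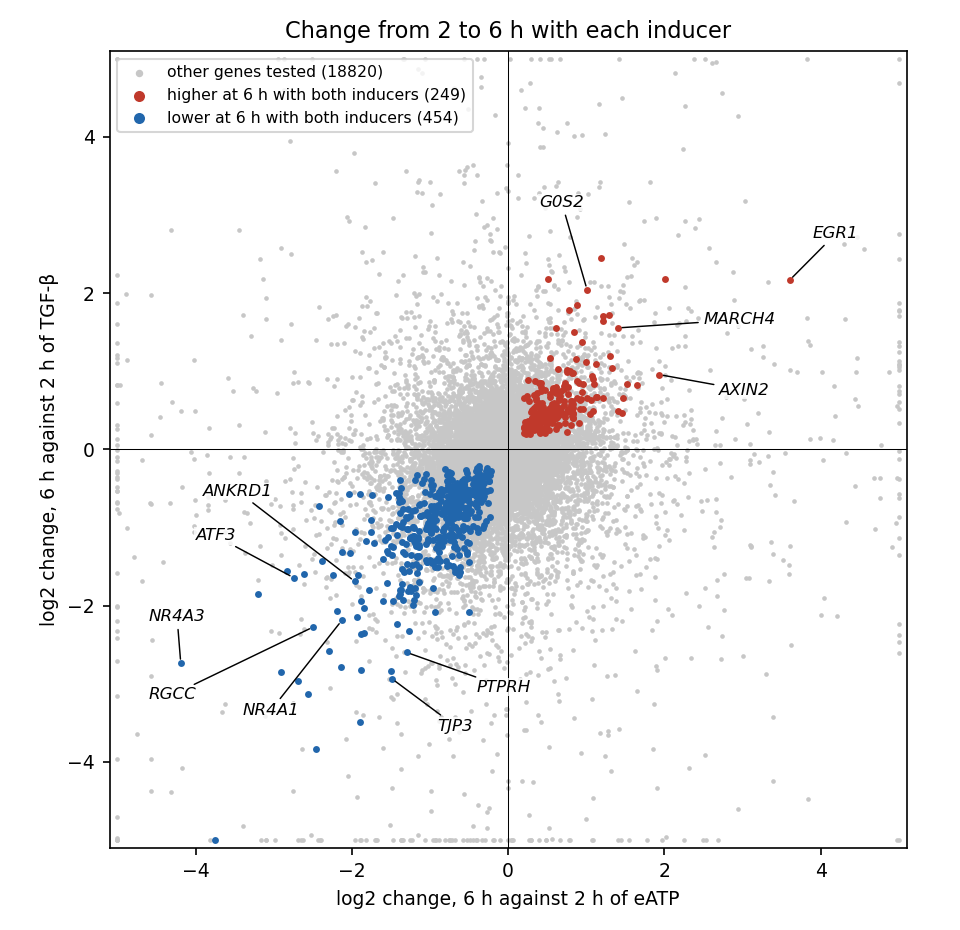
Each point is 1 of the 19523 genes tested, with its log2 change from 2 to 6 h of eATP on the x axis and of TGF-β on the y axis; changes past the axes are drawn at the edge. The 249 red points were higher and the 454 blue points lower with both inducers, and EGR1 and NR4A3 lie farthest out among the named genes.

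Immediate early transcription factors held both the largest fall and the largest rise among the genes named. Of 22 tested, 3 (5 without TGF2 replicate 1) were higher and 7 lower in the mean of both inducers, and 1 was higher and 5 lower with each, with a list median of -0.16. These and all list counts below stand beside 7.94% higher and 9.37% lower of all genes tested in the mean. With both inducers the shares over all genes were 1.28% and 2.33%. NR4A3, an orphan nuclear receptor, stood at 5.97, 6.35, 6.12 and 6.39 FPKM after 2 h of eATP and at 0.359, 0.378, 0.269 and 0.354 after 6 h. With TGF-β it stood at 0.672, 2.83, 3.44 and 0.742 after 2 h and at 0.287, 0.356, 0.238 and 0.214 after 6 h. TGF2 replicates 2 and 3 were several times higher than replicates 1 and 4, yet 2 h and 6 h did not overlap with either inducer, and NR4A3 was 18.2-fold lower at 6 h with eATP and 6.67-fold lower with TGF-β (log2(FC) -3.46 ± 0.31 SE, adjusted p = 2.56e-06 in the mean). Its 6 h levels lay within or under the control range, at 0.392, 0.453, 0.356 and 0.473 FPKM. The related receptor NR4A1 fell from 11.8, 10.6, 12.3 and 9.23 to 2.54, 2.14, 2.51 and 2.83 FPKM with eATP. With TGF-β it fell from 3.21, 4.23, 3.98 and 3.9 to 0.668, 0.957, 0.834 and 0.746 FPKM, which is under the control range of 1.73 to 2.57. Its fall was nearly the same with both inducers (4.37-fold and 4.56-fold, log2(FC) -2.16 ± 0.09 SE, adjusted p = 2.71e-09), and the difference between inducers did not pass the test (TGF-β minus eATP, -0.06 ± 0.18 SE, adjusted p = 0.937). The third member of the family, NR4A2, fell 2.21-fold and 3.26-fold (log2(FC) -1.42 ± 0.13 SE, adjusted p = 2.42e-06). ATF3, a stress-induced factor of the ATF/CREB family, stood at 4.02, 2.69, 2.7 and 2.71 and then 0.575, 0.453, 0.361 and 0.395 FPKM with eATP. With TGF-β its values were 2.3, 2.01, 3.21 and 4.45 and then 0.979, 0.785, 0.666 and 1.25 FPKM (log2(FC) -2.19 ± 0.19 SE, adjusted p = 1.44e-06). After 6 h of eATP ATF3 was within or just under the control range of 0.384 to 0.723 FPKM, while 3 of the 4 TGF6 libraries lay above it.

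EGR1, a zinc finger factor and classical immediate early gene, moved the other way. Its control libraries held 24.8, 21.4, 19.5 and 28.5 FPKM. After 2 h of eATP the values were 0.914, 0.862, 0.997 and 0.8 FPKM, and after 6 h 10.8, 9.28, 13.2 and 10.2. With TGF-β they were 3.49, 3.3, 3 and 7.58 after 2 h and 19.2, 19.1, 16.8 and 20 after 6 h. Every 2 h library thus lay under every control library, and the 6 h libraries lay between, apart from 1 TGF6 library above the lowest control. The rise from 2 to 6 h was 12.2-fold with eATP and 4.48-fold with TGF-β (log2(FC) 2.88 ± 0.18 SE, adjusted p = 7.81e-08), and it was smaller with TGF-β (TGF-β minus eATP, -1.44 ± 0.33 SE, adjusted p = 0.0185). The promoter of EGR1 is shown because serum response factor, which binds CArG boxes, is the textbook regulator of this gene. The 120 bases before the RefSeq start site (GRCh38.p14, chr5:138465359-138465478, plus strand) hold 2 CArG boxes, in capitals, at -105 and -83.
EGR1: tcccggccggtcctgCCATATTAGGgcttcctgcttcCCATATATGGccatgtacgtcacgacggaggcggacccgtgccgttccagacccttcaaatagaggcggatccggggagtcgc
A CArG box was found in 0.999% of the 11113 promoters of tested genes, each spanning 250 bases before to 50 after the start, on either strand. It was in 3 of 199 promoters of genes higher with both inducers and in 4 of 330 of genes lower with both.

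Genes that answer cyclic AMP and the factor CREB were lower at 6 h more often than not in the mean of both inducers. Of 15 tested, 1 (0 to 1) was higher and 10 lower in the mean, and 5 (3 to 7) were lower with each inducer, among them the 3 NR4A genes above, with a list median of -0.65. Over all genes tested 9.37% were lower in the mean and 2.33% with both. With eATP 0 (1 without TGF2 replicate 1) were higher and 10 lower. With TGF-β 2 were higher and 5 (8 without TGF2 replicate 1) lower, so fewer members fell with TGF-β. PDE10A, a phosphodiesterase that breaks down cyclic nucleotides, fell from a range of 2.83 to 3.15 FPKM at 2 h to one of 2.14 to 2.33 at 6 h with eATP and from a range of 1.4 to 1.94 FPKM at 2 h to one of 0.717 to 1.05 at 6 h with TGF-β (log2(FC) -0.72 ± 0.08 SE, adjusted p = 1.76e-05). Its call with eATP was lost on leaving out any 1 of replicates 1 to 4 of ATP2, replicates 1 to 4 of ATP6, and replicate 2 of TGF6 (adjusted p up to 0.0964), and also with no filter, with library totals alone and in limma on log2(FPKM + 0.1). PTGS2, the inducible cyclooxygenase that makes prostaglandins, was chosen after its values were seen. It stood at 171, 163, 175 and 178 FPKM after 2 h of eATP and at 70, 71.4, 65.5 and 69.8 after 6 h. The TGF-β values were 32.3, 53.9, 60.5 and 56.8 and then 20.7, 21.7, 18.8 and 23.2 FPKM. PTGS2 thus fell by similar factors with both inducers (2.48-fold and 2.32-fold, log2(FC) -1.26 ± 0.09 SE, adjusted p = 4.41e-07) although its 6 h level stayed above the control range of 37.7 to 47.5 FPKM with eATP and lay under it with TGF-β.

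Feedback regulators of MAP kinase signaling also had more members lower than higher. Of 21 tested, 1 was higher and 10 lower in the mean, and 5 were lower with both inducers, with a list median of -0.26. ERRFI1, which inhibits the EGF receptor, stood at 38.4, 33.9, 41.4 and 40.2 FPKM after 2 h of eATP and at 19.2, 21.4, 17.6 and 18.2 after 6 h. TGF-β gave 28.2, 36.4, 38.8 and 36.3 and then 17.3, 20.7, 17.3 and 19.1 FPKM (log2(FC) -0.93 ± 0.07 SE, adjusted p = 3.96e-07). Both 6 h groups overlapped the controls, at 17 to 22.9 FPKM. Of the dual-specificity phosphatases, which remove phosphate from MAP kinases, DUSP14 fell 2.1-fold with eATP and 1.3-fold with TGF-β, a difference that passed the test (TGF-β minus eATP, 0.69 ± 0.11 SE, adjusted p = 0.00108). DUSP16 fell from a range of 25 to 26.7 FPKM at 2 h to one of 13.2 to 16.2 at 6 h with eATP and from a range of 12.7 to 18.9 FPKM at 2 h to one of 10.6 to 12.3 at 6 h with TGF-β (log2(FC) -0.64 ± 0.07 SE, adjusted p = 1.68e-05). DUSP4 fell from a range of 75 to 76.1 FPKM at 2 h to one of 47.8 to 53.3 at 6 h with eATP and from a range of 23.7 to 29 FPKM at 2 h to one of 17.6 to 20.2 at 6 h with TGF-β (log2(FC) -0.47 ± 0.04 SE, adjusted p = 3.53e-06), so that it stayed above the controls (41.5 to 48.4 FPKM) in 3 of 4 ATP6 libraries and under them in every TGF-β library.

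Of 25 tested genes of NF-kB feedback and cytokines, 4 (2 to 5) were higher and 9 lower in the mean. The 3 that were lower with each inducer, CCL20, CXCL8 and CXCL1, encode chemokines. With eATP 11 were lower, and with TGF-β 8 were higher and 4 lower. CCL20, which attracts lymphocytes and dendritic cells through CCR6, stood at 26.9, 29.3, 35.2 and 30.1 FPKM after 2 h of eATP and at 7.74, 8.37, 7.44 and 8.41 after 6 h. Under TGF-β the level was 4.78, 4.04, 5.51 and 9.64 and then 1.77, 2, 2.16 and 1.58 FPKM. The falls were 3.8-fold and 3.06-fold (log2(FC) -1.77 ± 0.15 SE, adjusted p = 1.66e-06), from a level far above the controls (4.44 to 5.88 FPKM) with eATP and from about the control level with TGF-β. CXCL8, the neutrophil chemokine interleukin-8, fell from 413, 418, 474 and 475 to 164, 175, 177 and 169 FPKM with eATP. Its TGF-β values were 181, 166, 217 and 208 and then 154, 148, 142 and 122 FPKM (log2(FC) -0.89 ± 0.07 SE, adjusted p = 6.24e-07). The fall of CXCL8 was larger with eATP (TGF-β minus eATP, 0.98 ± 0.14 SE, adjusted p = 0.000416), and the call with TGF-β was lost on leaving out replicate 4 of TGF2 (adjusted p = 0.0521). CXCL1 fell from a range of 249 to 282 FPKM at 2 h to one of 174 to 198 at 6 h with eATP and from a range of 95 to 132 FPKM at 2 h to one of 79.5 to 94.1 at 6 h with TGF-β (log2(FC) -0.47 ± 0.07 SE, adjusted p = 0.000366), with the TGF-β call lost on leaving out any 1 of replicate 3 of TGF2 and replicates 1, 2 and 4 of TGF6 (adjusted p up to 0.073). Promoter stretches of CCL20 and CXCL1 are shown because each holds a match to the kB motif of NF-kB (GGG, any 2 bases, TTTCC), in capitals, at -79 from the RefSeq start. They cover 120 bases of GRCh38.p14 (chr2:227813722-227813841, plus strand, and chr4:73869273-73869392, plus strand), and in CCL20 the match is on the opposite strand.
CCL20: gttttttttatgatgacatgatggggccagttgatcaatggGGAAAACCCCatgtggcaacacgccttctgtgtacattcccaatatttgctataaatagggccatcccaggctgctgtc
CXCL1: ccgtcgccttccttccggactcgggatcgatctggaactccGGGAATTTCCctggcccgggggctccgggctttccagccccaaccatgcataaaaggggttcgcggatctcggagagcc
The motif was in 2.22% of all tested promoters, in 2.42% of those of genes lower with both inducers and in 0.503% of those of genes higher with both.

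Growth factor ligands and receptors had 3 members higher and 13 lower of 30 tested in the mean, and 4 (2 without ATP2 replicate 3) were lower with both inducers. On leaving out replicate 1 or 2 of TGF2, 1 member was also higher with both. AREG (amphiregulin), a ligand of the EGF receptor, stood at 181, 176, 189 and 184 FPKM after 2 h of eATP and 147, 137, 161 and 142 after 6 h. The TGF-β libraries held 33.7, 29.8, 30.3 and 30.6 and then 16.2, 16.3, 14.6 and 14.1 FPKM (log2(FC) -0.64 ± 0.06 SE, adjusted p = 2.2e-06). All ATP libraries thus lay above the controls (72.4 to 79.1 FPKM) and all TGF libraries under them, and within each the level fell with time. EREG (epiregulin), a second such ligand, fell from a range of 78.8 to 88.7 FPKM at 2 h to one of 49.5 to 59.9 at 6 h with eATP and from a range of 7.95 to 15.1 FPKM at 2 h to one of 6.44 to 7.65 at 6 h with TGF-β (log2(FC) -0.69 ± 0.10 SE, adjusted p = 0.000255). The call with eATP was lost for AREG on leaving out any 1 of replicate 3 of ATP2 and replicates 2 and 4 of ATP6 (adjusted p up to 0.0641), and for EREG on leaving out any 1 of replicates 3 and 4 of ATP2 and replicate 3 of ATP6 (up to 0.0724). PTHLH, a parathyroid hormone-like peptide, fell 1.86-fold and 1.5-fold (log2(FC) -0.74 ± 0.10 SE, adjusted p = 7.87e-05) and stayed above the control range of 2.79 to 3.6 FPKM in every treated library. The receptor gene FGFR2 fell from a range of 0.665 to 0.78 FPKM at 2 h to one of 0.336 to 0.6 at 6 h with eATP and from a range of 0.5 to 0.722 FPKM at 2 h to one of 0.172 to 0.223 at 6 h with TGF-β (log2(FC) -1.11 ± 0.12 SE, adjusted p = 1.2e-05). The AREG promoter is shown because it holds a full cyclic AMP response element, TGACGTCA, in capitals at -65, within 120 bases of GRCh38.p14 (chr4:74445016-74445135, plus strand).
AREG: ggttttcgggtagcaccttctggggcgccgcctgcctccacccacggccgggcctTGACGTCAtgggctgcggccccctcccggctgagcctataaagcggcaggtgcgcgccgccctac
This element was in 3.14% of all tested promoters, in 3.33% of those of genes lower with both inducers and in 2.01% of those of genes higher with both.

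Clock genes had 2 members higher and 7 lower of 15 tested in the mean, and 1 higher and 2 (1 to 2) lower with both inducers. PER2, a repressor of the circadian oscillator, stood at 2.91, 2.73, 2.45 and 2.76 FPKM after 2 h of eATP and at 1.04, 1.35, 1.1 and 1.31 after 6 h. With TGF-β the values were 1.65, 2.27, 2.47 and 2.23 and then 0.507, 0.574, 0.659 and 0.529 FPKM. PER2 at 6 h lay under the controls (2.39, 2.02, 1.69 and 2.19 FPKM) in all 8 libraries (log2(FC) -1.52 ± 0.09 SE, adjusted p = 7.36e-08), and its fall was larger with TGF-β (TGF-β minus eATP, -0.69 ± 0.18 SE, adjusted p = 0.0383). The 2 related repressors BHLHE40 and BHLHE41 went in opposite directions. BHLHE40 rose from a range of 25.9 to 28.7 FPKM at 2 h to one of 47.4 to 49.4 at 6 h with eATP and from a range of 69.9 to 110 FPKM at 2 h to one of 110 to 132 at 6 h with TGF-β, where the ranges touched (log2(FC) 0.62 ± 0.07 SE, adjusted p = 2.05e-05). Scaled by library totals alone its TGF-β call was lost (adjusted p = 0.0503). BHLHE41 fell from a range of 0.734 to 0.876 FPKM at 2 h to one of 0.459 to 0.674 at 6 h with eATP and from a range of 0.943 to 1.38 FPKM at 2 h to one of 0.359 to 0.461 at 6 h with TGF-β (log2(FC) -0.97 ± 0.10 SE, adjusted p = 1.33e-05). Its call with eATP was lost on leaving out any 1 of replicates 1 to 4 of ATP2, replicates 1, 3 and 4 of ATP6, and replicate 2 of TGF6 (adjusted p up to 0.113), and also with no filter and in limma on log2(FPKM + 1).

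Other large falls came from genes of varied roles. ANKRD1, a cardiac ankyrin repeat protein gene and a target of YAP and TEAD factors, stood at 61.1, 65.6, 72.3 and 66.4 FPKM after 2 h of eATP and at 16.4, 16.1, 18.6 and 17 after 6 h. In the TGF-β groups it was 43.1, 31, 47.2 and 42.8 and then 12.4, 13.3, 11.7 and 11.7 FPKM (log2(FC) -1.83 ± 0.08 SE, adjusted p = 3.79e-09), close to the controls at 13.9, 12.4, 13.2 and 12.9. Of 14 tested YAP-TEAD targets 4 were lower in the mean, and ANKRD1 was the 1 lower with both inducers. With eATP 1 (2 without TGF2 replicate 1) was higher and 7 lower (list median -0.50). With TGF-β 4 were higher and 3 (5 without TGF2 replicate 1) lower (list median 0.11). RGCC, a regulator of the cell cycle, fell from 7.6, 8.58, 8.43 and 8.92 to 1.41, 1.2, 1.9 and 1.41 FPKM with eATP. Its TGF-β values were 2.63, 1.87, 1.66 and 2.91 and then 0.394, 0.259, 0.664 and 0.495 FPKM, against 1.52 to 1.97 in the controls (log2(FC) -2.38 ± 0.19 SE, adjusted p = 6.72e-07). PTPRH, a receptor tyrosine phosphatase, was 2.46-fold lower with eATP and 6.06-fold lower with TGF-β (log2(FC) -1.95 ± 0.15 SE, adjusted p = 5.28e-07). ARL14, a small GTPase of the ARF-like family, fell from a range of 7.3 to 9.27 FPKM at 2 h to one of 1.16 to 2.15 at 6 h with eATP and from a range of 0.739 to 1.38 FPKM at 2 h to one of 0.245 to 0.468 at 6 h with TGF-β (log2(FC) -1.90 ± 0.18 SE, adjusted p = 5.05e-06). NCALD, which encodes the calcium sensor neurocalcin delta, fell 3.04-fold and 3.85-fold (log2(FC) -1.77 ± 0.13 SE, adjusted p = 2.95e-07). TTLL6, a polyglutamylase of tubulin, fell 2.78-fold and 3.84-fold (log2(FC) -1.71 ± 0.13 SE, adjusted p = 4.03e-07). The lincRNA LIVAR fell from a range of 0.914 to 1.53 FPKM at 2 h to one of 0.104 to 0.308 at 6 h with eATP and from 0.911 to 1.68 with TGF-β to a level that 2 of 4 libraries list at the placeholder for 0 (log2(FC) -2.85 ± 0.52 SE, adjusted p = 0.00137). Its call with eATP was lost on leaving out any 1 of replicates 1, 2 and 4 of ATP2 and replicates 1, 2 and 4 of ATP6 (adjusted p up to 0.0891), and also with no filter.

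Rises were smaller and spread over other functions. MARCH4, a membrane-bound ubiquitin ligase, stood at 3.18, 3.47, 3.17 and 3.11 FPKM after 2 h of eATP and at 8.53, 8.31, 8.75 and 8.73 after 6 h. With TGF-β the values were 2.98, 3.26, 3.9 and 4.15 and then 10.7, 10.1, 9.14 and 10.5 FPKM. This rise was even across the inducers (2.65-fold and 2.94-fold, log2(FC) 1.48 ± 0.07 SE, adjusted p = 3.6e-09) and started from 2 h levels that already lay above the controls (2.34 to 2.74 FPKM). AXIN2, a negative feedback target of Wnt signaling, stood at 0.856, 0.646, 0.63 and 0.617 and then 2.72, 2.87, 2.71 and 2.24 FPKM with eATP. Values with TGF-β were 0.42, 0.873, 0.716 and 0.666 and then 1.25, 1.14, 1.01 and 1.58 FPKM (log2(FC) 1.45 ± 0.14 SE, adjusted p = 4.06e-06). All 2 h libraries lay under the controls (1.76 to 2.51 FPKM), as did all TGF6 libraries. STC2 (stanniocalcin 2), a secreted glycoprotein, rose from 3.05, 3.13, 3.14 and 2.61 to 5.51, 5.48, 5.26 and 5.77 FPKM with eATP. Its TGF-β values were 1, 1.1, 1.37 and 1.72 and then 5.16, 4.64, 4.04 and 4.24 FPKM (log2(FC) 1.37 ± 0.10 SE, adjusted p = 3.11e-07). STC2 in TGF2 was below the controls (3.33 to 3.52 FPKM), and both 6 h groups were above them.

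PODXL, a sialomucin of the cell surface, rose from 5.86, 5.8, 5.85 and 5.65 to 10.4, 9.9, 8.9 and 10.7 FPKM with eATP. With TGF-β it rose from 5.81, 8.51, 8.4 and 8.45 to 26.5, 23.9, 25.8 and 27.1 FPKM (log2(FC) 1.28 ± 0.07 SE, adjusted p = 2.08e-08). This was 1.72-fold against 3.44-fold (TGF-β minus eATP, 1.001 ± 0.13 SE, adjusted p = 0.000317), and all 8 libraries at 6 h lay above the control range of 5.91 to 7.47 FPKM. G0S2, an inhibitor of the triglyceride lipase ATGL, rose from a range of 2.38 to 2.96 FPKM at 2 h to one of 4.04 to 6.59 at 6 h with eATP and from a range of 1.64 to 3.13 FPKM at 2 h to one of 7.68 to 11.3 at 6 h with TGF-β (log2(FC) 1.52 ± 0.16 SE, adjusted p = 1.04e-05). IGFL1, a secreted protein of the IGF-like family, rose from a range of 1.84 to 2.2 FPKM at 2 h to one of 4.47 to 5.18 at 6 h with eATP and from a range of 0.954 to 3.43 FPKM at 2 h to one of 5.13 to 7.36 at 6 h with TGF-β (log2(FC) 1.46 ± 0.22 SE, adjusted p = 0.000278), with the eATP call lost on leaving out replicate 4 of ATP2 (adjusted p = 0.0549). PLEKHO2 rose 2.51-fold and 2.05-fold (log2(FC) 1.18 ± 0.13 SE, adjusted p = 1.29e-05). CCBE1, a secreted protein that takes part in processing VEGF-C, rose 2.87-fold and 1.78-fold (log2(FC) 1.18 ± 0.17 SE, adjusted p = 0.00017), and its TGF-β call was lost on leaving out any 1 of replicate 4 of TGF2 and replicates 1, 3 and 4 of TGF6 (adjusted p up to 0.0845), and also with library totals alone. ZNF488, a zinc finger protein, rose from 2.79, 2.28, 2.17 and 2.37 to 7.01, 6.75, 6.24 and 6.59 FPKM with eATP. Its TGF-β libraries rose from 1.65, 1.92, 1.9 and 1.78 to 2.83, 2.98, 2.36 and 2.81 FPKM (log2(FC) 1.06 ± 0.07 SE, adjusted p = 1.25e-07), the smaller rise (TGF-β minus eATP, -0.82 ± 0.14 SE, adjusted p = 0.00186). All ATP6 libraries lay above the controls (2.52 to 3.39 FPKM) and all TGF2 libraries under them. The long noncoding RNA SNHG26 rose 2.17-fold and 2.13-fold (log2(FC) 1.11 ± 0.12 SE, adjusted p = 1.08e-05).

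**Figure D2:**
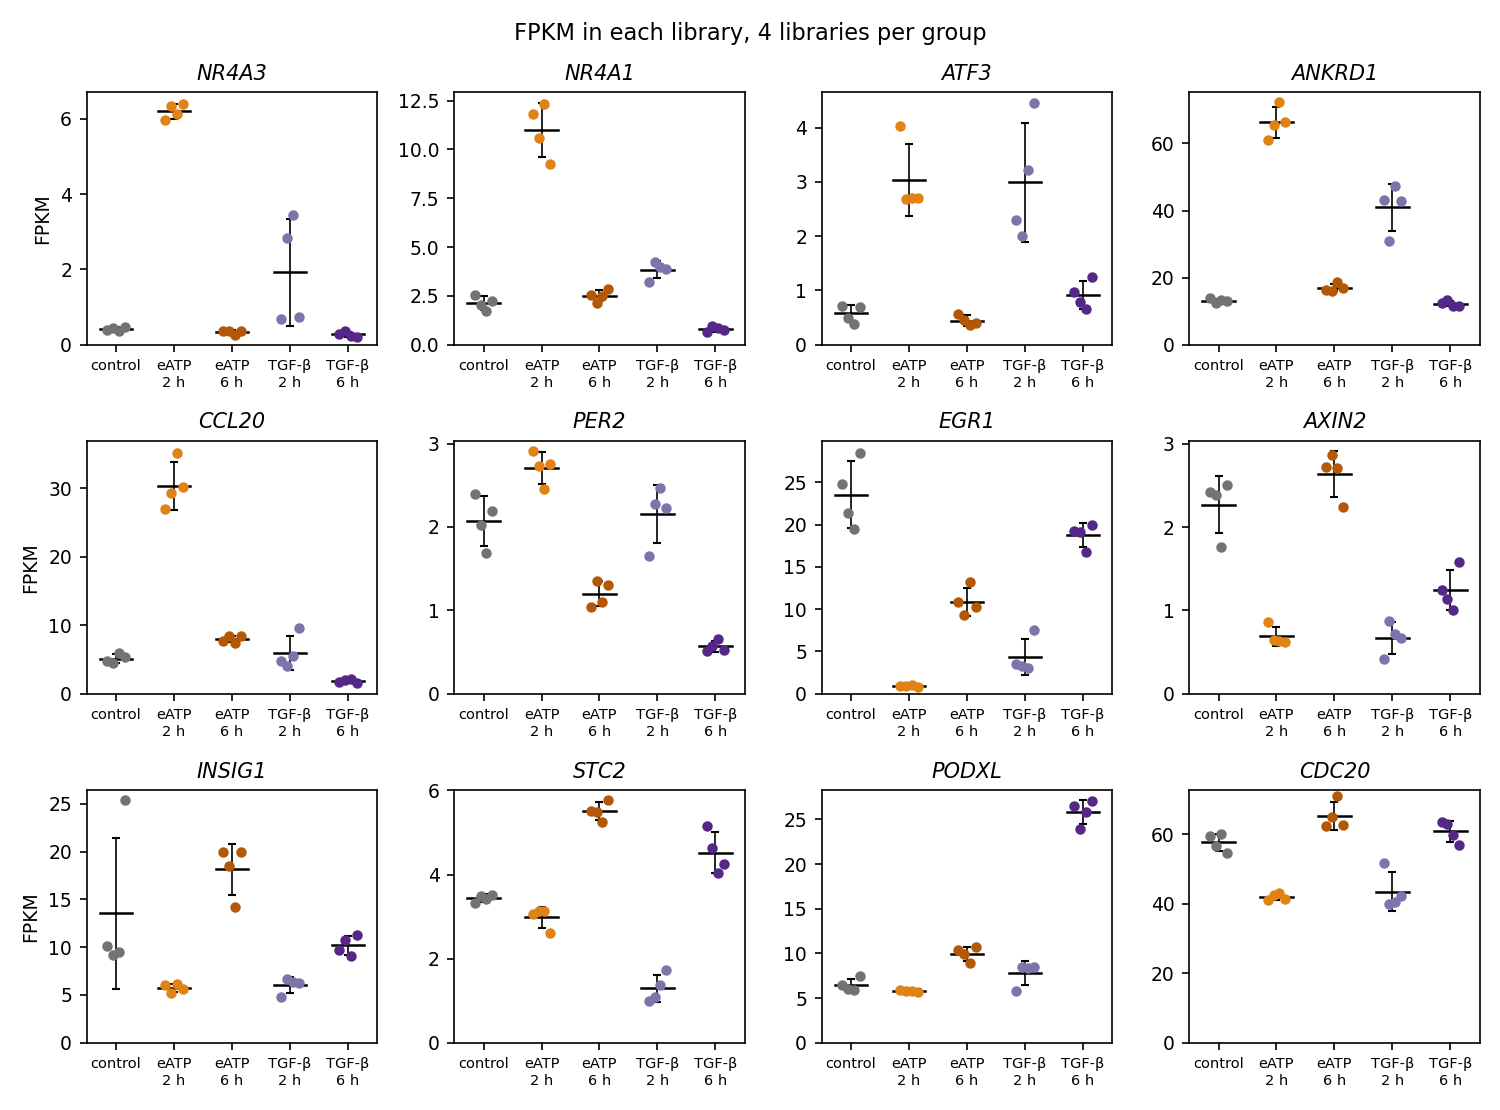
Each panel gives the FPKM of 1 gene in the 4 libraries of each group (points), with the group mean (line) and SD (bar), for controls, eATP and TGF-β at 2 and 6 h. In NR4A3, NR4A1, ATF3, ANKRD1, CCL20 and PER2 the 6 h points lie under the 2 h points with each inducer, and in EGR1, AXIN2, INSIG1, STC2, PODXL and CDC20 above them.

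Genes of G2/M and mitosis rose together. Of 26 tested, 22 were higher in the mean of both inducers and 7 were higher with each, with list medians of 0.37 for eATP, 0.28 for TGF-β and 0.34 for the mean. Under library totals alone the list median was 0.32, and without TGF2 replicate 1 the count with each inducer was 10. CDC20, an activator of the anaphase-promoting complex, stood at 41, 42.6, 43.2 and 41.5 FPKM after 2 h of eATP and at 62.4, 65, 71.1 and 62.6 after 6 h. With TGF-β it stood at 51.7, 39.8, 40.4 and 42.2 and then 63.5, 63, 59.9 and 56.9 FPKM. CDC20 at 6 h lay within or above the control range (59.4, 56.7, 60 and 54.5 FPKM), and at 2 h every library lay under them (log2(FC) 0.58 ± 0.07 SE, adjusted p = 2.37e-05). TPX2, a spindle assembly factor, rose from a range of 65.5 to 66.8 FPKM at 2 h to one of 89.8 to 99.2 at 6 h with eATP and from a range of 55.4 to 76.2 FPKM at 2 h to one of 83.8 to 93.6 at 6 h with TGF-β (log2(FC) 0.45 ± 0.05 SE, adjusted p = 3.48e-05), against controls of 91.3 to 96.7. The helicase gene PIF1 rose 1.65-fold and 1.7-fold (log2(FC) 0.74 ± 0.11 SE, adjusted p = 0.000166). CENPA, the histone H3 variant of centromeres, rose 1.28-fold and 1.37-fold (log2(FC) 0.41 ± 0.06 SE, adjusted p = 0.000196), with the eATP call lost on leaving out replicate 1 of ATP6 (adjusted p = 0.0524). CCNB1, PLK1 and BUB1 were the other 3 higher with both. In bulk RNA, a change in the number of cells in a phase and a change of RNA per cell cannot be told apart.

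Genes of G1/S and DNA replication did not share this pattern. Of 30 tested, 5 (3 to 5) were higher in the mean, but 15 were higher under eATP and 5 (10 without TGF2 replicate 1) lower under TGF-β, with list medians of 0.45 and -0.19. At an unadjusted p under 0.05, no member was lower with eATP or higher with TGF-β in edgeR's test, and DESeq2 called 20 higher under eATP and 9 lower under TGF-β. The members with the highest FPKM, PCNA and MCM7, had log2(FC) of -0.02 and 0.03 in the mean (adjusted p = 0.878 and 0.821). In sign, 29 of the 30 had positive values under eATP and 25 had negative values under TGF-β, while 26 and 25 of the 26 G2/M genes were positive. E2F2, an activator of S phase genes, and CDC6, a loader of the replicative helicase, were chosen after their values were seen. E2F2 stood at 1.66, 1.34, 1.29 and 1.25 and then 2.61, 2.51, 2.12 and 2.79 FPKM with eATP. TGF-β gave 1.93, 1.87, 1.92 and 1.53 and then 0.778, 0.681, 0.724 and 0.708 FPKM, so the inducers differed (TGF-β minus eATP, -2.13 ± 0.17 SE, adjusted p = 3.73e-06). CDC6 changed by 0.56 ± 0.10 (SE, adjusted p = 0.00143) with eATP and by -0.59 ± 0.10 (SE, adjusted p = 0.00102) with TGF-β. CCND1 (cyclin D1), which drives entry into the cycle, rose with both, from a range of 81.8 to 85.4 FPKM at 2 h to one of 131 to 146 at 6 h with eATP and from a range of 85.2 to 110 FPKM at 2 h to one of 111 to 123 at 6 h with TGF-β (log2(FC) 0.53 ± 0.05 SE, adjusted p = 2.08e-06). Among 7 tested D cyclins and CDK inhibitors it was the 1 member called in the mean.

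**Figure D3:**
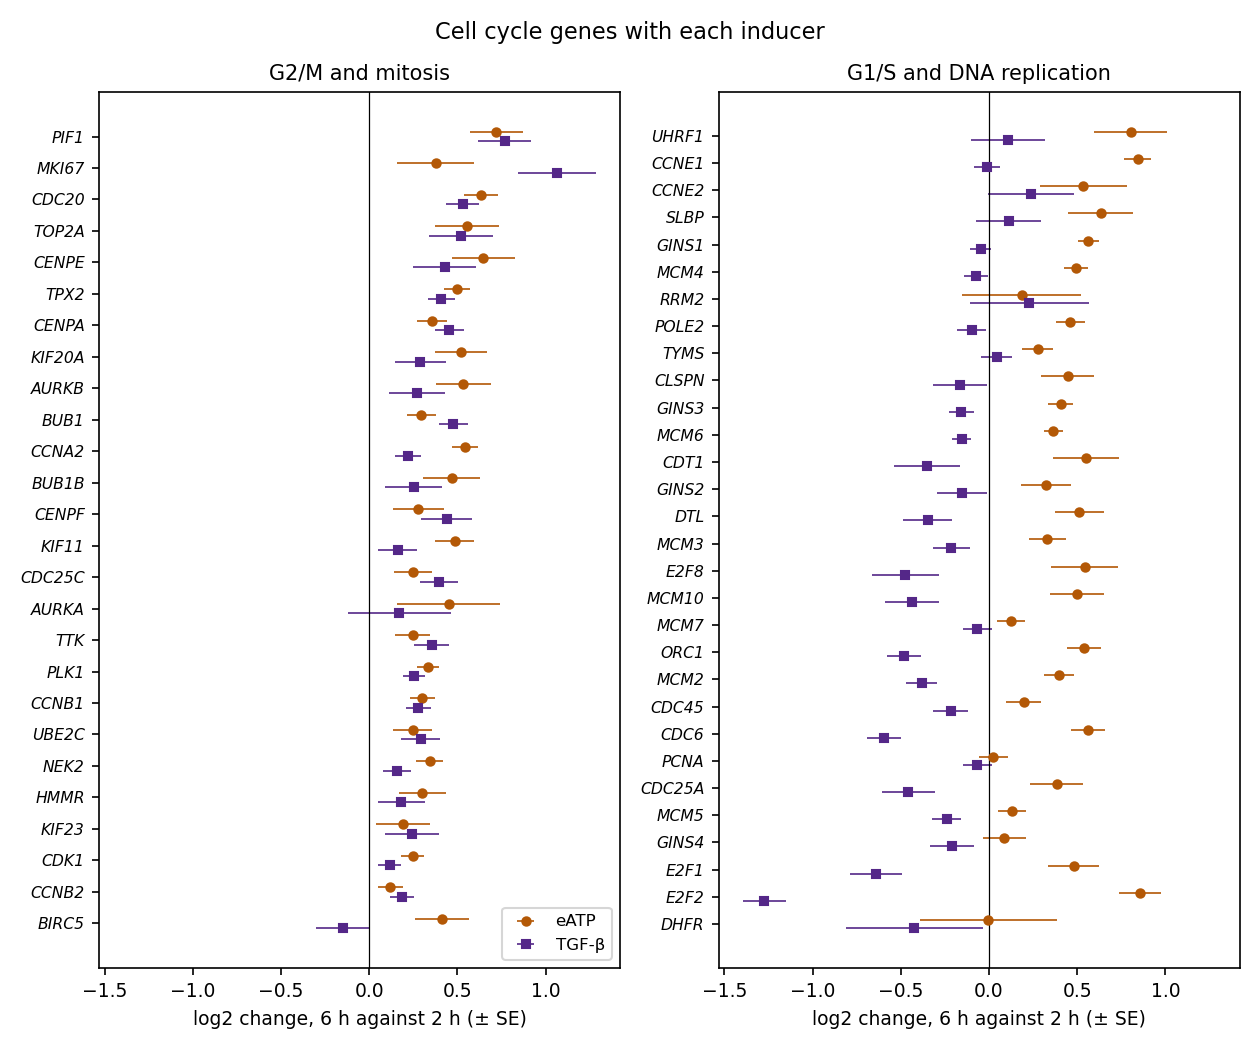
Points give the log2 change from 2 to 6 h, with SE bars, of each tested gene of the G2/M list (left, 26 genes) and the G1/S list (right, 30 genes), for eATP (circles) and TGF-β (squares). In G2/M 26 circles and 25 squares lie right of 0, and in G1/S 29 circles lie right of 0 and 25 squares left of it.

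Of 32 ribosome biogenesis genes tested, 13 (22 without TGF2 replicate 1) were higher and 0 lower in the mean and 2 (1 to 6) higher with both inducers, with a list median of 0.20 (edgeR; at an unadjusted p under 0.05, 21 were higher and 0 lower, and DESeq2 called 16 and 0). With eATP 12 (7 to 24) were higher and with TGF-β 3 (1 to 7), and without TGF2 replicate 1 the count higher with both was 6. DKC1, the pseudouridine synthase of small nucleolar ribonucleoproteins, rose from 32.2, 33.4, 32.8 and 31.8 to 47.2, 44.3, 46 and 45.8 FPKM with eATP. With TGF-β it rose from 26.1, 30.7, 33.1 and 30.3 to 37.5, 34.1, 35.9 and 38.7 FPKM (log2(FC) 0.41 ± 0.04 SE, adjusted p = 1.37e-05). The nucleolar protein gene NCL rose 1.4-fold and 1.2-fold (log2(FC) 0.37 ± 0.05 SE, adjusted p = 0.000112), and its TGF-β call was lost on leaving out any 1 of replicates 2 and 4 of TGF2 and replicates 1, 2 and 3 of TGF6 (adjusted p up to 0.0895), and also with no filter, with upper-quartile scaling, with library totals alone and in both limma fits. Cytosolic ribosomal proteins, by contrast, had 0 of 24 members called in the mean by edgeR, 0 at an unadjusted p under 0.05 and 0 by DESeq2. Of 27 nuclear genes of oxidative phosphorylation, edgeR called 0 in the mean (at most 1 without any 1 library), with 2 at an unadjusted p under 0.05, and DESeq2 called 1 higher and 1 lower. Of 13 mitochondrially encoded genes edgeR and DESeq2 called 0 (edgeR at most 1 without any 1 library), with 1 at an unadjusted p under 0.05. RPL19, ATP5F1B and MT-CO2 had log2(FC) of -0.02 ± 0.11 (SE, adjusted p = 0.936), -0.12 ± 0.07 (SE, adjusted p = 0.278) and -0.03 ± 0.09 (SE, adjusted p = 0.9).

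Sterol genes were called in both directions. Of 28 genes of cholesterol synthesis and SREBP2 control, 7 were higher and 4 lower in the mean, and 4 (2 to 5) were higher and 3 lower with both inducers. INSIG1, which holds the SREBP proteins in the endoplasmic reticulum when sterols are plentiful, stood at 6.04, 5.22, 6.18 and 5.58 FPKM after 2 h of eATP and at 19.9, 18.5, 14.2 and 19.9 after 6 h. Under TGF-β the level was 4.78, 6.63, 6.34 and 6.3 and then 9.69, 10.7, 9.11 and 11.3 FPKM, and 1 of the controls, at 10.1, 9.19, 9.47 and 25.4, was far above the other 3. Its rise (log2(FC) 1.24 ± 0.08 SE, adjusted p = 1.51e-07) was larger with eATP (TGF-β minus eATP, -0.84 ± 0.16 SE, adjusted p = 0.00564). Beside INSIG1, the synthesis enzymes SQLE, MSMO1 and NSDHL were higher with both. SQLE (squalene epoxidase), chosen after its values were seen, rose from a range of 32.5 to 34.6 FPKM at 2 h to one of 58.4 to 60.7 at 6 h with eATP and from a range of 23.9 to 36.5 FPKM at 2 h to one of 44 to 47.2 at 6 h with TGF-β (log2(FC) 0.71 ± 0.06 SE, adjusted p = 2.72e-06). The 3 genes lower with both were the cholesterol exporters ABCG1 and ABCA1 and the transcription factor SREBF1. ABCG1 stood at 2.06, 1.77, 1.71 and 2.08 and then 0.433, 0.401, 0.273 and 0.313 FPKM with eATP. With TGF-β its values were 3.6, 3.89, 4.02 and 4.78 and then 2.32, 2.48, 2.09 and 2.59 FPKM (log2(FC) -1.57 ± 0.10 SE, adjusted p = 9.29e-08), so all TGF-β libraries stayed above the controls (0.553 to 0.58 FPKM) and the ATP6 libraries lay under them. ABCA1 fell 2.71-fold and 1.47-fold (log2(FC) -0.998 ± 0.10 SE, adjusted p = 6.73e-06), with the TGF-β call lost on leaving out any 1 of replicates 3 and 4 of TGF2 (adjusted p up to 0.0538). SREBF1 fell from a range of 10.9 to 13.4 FPKM at 2 h to one of 6.29 to 8.33 at 6 h with eATP and from a range of 13.5 to 14.3 FPKM at 2 h to one of 6.55 to 7.9 at 6 h with TGF-β (log2(FC) -0.80 ± 0.07 SE, adjusted p = 1.51e-06).

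Of 11 fatty acid synthesis genes 2 (4 without TGF2 replicate 1) were lower in the mean. ACSS2, which makes acetyl-CoA from acetate, was lower with both inducers (1.28-fold and 1.33-fold, log2(FC) -0.39 ± 0.06 SE, adjusted p = 0.000183). Glycolysis genes had 2 higher and 2 lower of 22 in the mean, close to the 7.94% higher and 9.37% lower of all genes tested. With both inducers 1 (1 to 2) was higher and 1 lower. In the fit of all libraries these were 2 isoforms of phosphofructokinase, which moved in opposite directions. PFKM, the muscle isoform, fell from a range of 5.74 to 6.51 FPKM at 2 h to one of 3.98 to 4.44 at 6 h with eATP and from a range of 5.37 to 6.19 FPKM at 2 h to one of 2.94 to 3.7 at 6 h with TGF-β (log2(FC) -0.63 ± 0.05 SE, adjusted p = 1.38e-06). PFKP, the platelet isoform and the more abundant of the pair here, rose from a range of 54.2 to 61.3 FPKM at 2 h to one of 70.6 to 80.1 at 6 h with eATP and from a range of 58.2 to 61.9 FPKM at 2 h to one of 63.6 to 81.6 at 6 h with TGF-β (log2(FC) 0.37 ± 0.05 SE, adjusted p = 0.000281).

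Hepatic and enteric genes, which A549 expresses aberrantly, had 2 members higher and 10 lower of 19 in the mean, and 1 higher and 5 lower with both inducers, with a list median of -0.40. FGA, the fibrinogen alpha chain, stood at 44.1, 43.3, 40 and 42.7 FPKM after 2 h of eATP and at 27.4, 29.9, 27 and 26.9 after 6 h. The TGF-β libraries held 26.6, 27.9, 28.7 and 28.4 and then 9.89, 9.59, 8.49 and 9.82 FPKM. At 6 h FGA lay under the controls (30.8 to 32.7 FPKM) in all 8 libraries (log2(FC) -1.06 ± 0.04 SE, adjusted p = 2.71e-09), and its fall was larger with TGF-β (TGF-β minus eATP, -0.89 ± 0.09 SE, adjusted p = 2.08e-05). FGG, the gamma chain encoded nearby, fell 1.4-fold and 2.07-fold (log2(FC) -0.77 ± 0.05 SE, adjusted p = 1.78e-07). VIL1 (villin 1), an actin-bundling protein of microvilli, fell 1.86-fold and 1.64-fold (log2(FC) -0.80 ± 0.11 SE, adjusted p = 8.82e-05). FGB, the fibrinogen beta chain, fell 1.37-fold and 1.98-fold (log2(FC) -0.72 ± 0.05 SE, adjusted p = 1.41e-07), with the larger fall under TGF-β (TGF-β minus eATP, -0.53 ± 0.09 SE, adjusted p = 0.00295). CPS1, the first enzyme of the urea cycle and an A549 marker, fell from a range of 23.8 to 26.7 FPKM at 2 h to one of 15.5 to 18.8 at 6 h with eATP and from a range of 11.5 to 20.8 FPKM at 2 h to one of 6.93 to 8.71 at 6 h with TGF-β (log2(FC) -0.85 ± 0.10 SE, adjusted p = 2.15e-05), with the eATP call lost on leaving out any 1 of replicates 1, 2 and 4 of ATP2 and replicate 3 of ATP6 (adjusted p up to 0.089). Of 14 A549 identity markers, CPS1 among them, 3 (3 to 5) were lower in the mean.

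Junction and mesenchymal genes mark the epithelial to mesenchymal transition that the study asked about. With both inducers 1 of 20 and 2 of 23 tested moved the same way, all of them lower, beside 3.6% of all genes tested. Of 20 epithelial junction genes 1 (2 without ATP6 replicate 3) was higher and 7 lower in the mean, and 1 (2 without TGF6 replicate 1) was lower with both inducers. That gene, TJP3, encodes the tight junction scaffold ZO-3. It stood at 2.07, 2.2, 1.38 and 1.72 FPKM after 2 h of eATP and at 0.626, 0.749, 0.601 and 0.629 after 6 h. In the TGF-β groups it was 2.53, 1.63, 1.94 and 2.1 and then 0.25, 0.129, 0.305 and 0.347 FPKM (log2(FC) -2.21 ± 0.18 SE, adjusted p = 1.05e-06). Its fall was larger with TGF-β (TGF-β minus eATP, -1.45 ± 0.35 SE, adjusted p = 0.0236), and all 6 h libraries lay under the controls (1.11 to 1.38 FPKM). CDH1 (E-cadherin) was chosen after its values were seen. Its values were 9.73, 13.2, 12.8 and 12.9 and then 7.63, 7.43, 2.91 and 5.6 FPKM with eATP. With TGF-β they were 2.45, 10.2, 15.3 and 14.8 and then 6.12, 2.62, 2.14 and 7.64 FPKM, so TGF2 replicate 1 lay within the 6 h range. CDH1 passed in the mean (log2(FC) -1.10 ± 0.34 SE, adjusted p = 0.0396) but with neither inducer (0.209 and 0.17), and it missed the threshold in 15 of 27 alternative fits (adjusted p 0.00398 to 0.0801). Of 23 mesenchymal genes and EMT factors 9 were higher and 3 lower in the mean. With TGF-β 10 of them were higher and with eATP 1 (0 to 3). CDH2 (N-cadherin), also chosen after its values were seen, changed by 0.16 ± 0.18 (SE, adjusted p = 0.696) with eATP. Its change with TGF-β was 0.83 ± 0.18 (SE, adjusted p = 0.00793), and the difference did not pass the test (TGF-β minus eATP, 0.66 ± 0.26 SE, adjusted p = 0.191). Of this list 2 (1 to 2) were lower with both, SOX4 and ACTA2, and without TGF2 replicate 1 another was higher. SOX4, a transcription factor, fell from a range of 17.6 to 18.7 FPKM at 2 h to one of 11.9 to 13.3 at 6 h with eATP and from a range of 26.2 to 29.9 FPKM at 2 h to one of 21 to 23.3 at 6 h with TGF-β (log2(FC) -0.42 ± 0.04 SE, adjusted p = 8.89e-06). ACTA2, smooth muscle actin, fell from a range of 1.95 to 2.37 FPKM at 2 h to one of 0.933 to 1.28 at 6 h with eATP and from a range of 1.85 to 2.26 FPKM at 2 h to one of 1.29 to 1.73 at 6 h with TGF-β (log2(FC) -0.71 ± 0.10 SE, adjusted p = 0.000115), with the TGF-β call lost on leaving out any 1 of replicates 1 to 4 of ATP2, replicates 1, 2 and 3 of TGF2, replicate 2 of ATP6, and replicates 1, 2 and 4 of TGF6 (adjusted p up to 0.119), and also with no filter and with all 20 libraries in the fit. Integrins and focal adhesion genes had 6 higher and 1 (1 to 2) lower of 25 in the mean. With eATP 0 were higher and 2 (0 to 2) lower, and with TGF-β 8 were higher and 1 lower. With both inducers 0 were higher and 1 (0 to 1) lower. The lower 1 was ITGB8, an integrin subunit that binds latent TGF-β, at 1.02 to 1.13 and then 0.43 to 0.507 FPKM with eATP and at 0.143 to 0.413 and then 0.0215 to 0.113 with TGF-β (log2(FC) -1.57 ± 0.26 SE, adjusted p = 0.000576), where the eATP call was lost on leaving out any 1 of replicates 1 to 4 of ATP2, replicate 4 of TGF2, replicates 1 to 4 of ATP6, and replicate 1 of TGF6 (adjusted p up to 0.0966), and also with no filter.

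Feedback genes of TGF-β and BMP signaling had 5 higher and 5 (3 to 6) lower of 19 in the mean, and 1 (2 without TGF2 replicate 1) higher with both inducers. As 3.6% of all genes tested moved the same way, 1 of 19 does not set this list apart. SMAD7, the inhibitory SMAD, was higher at 6 h with both inducers, at 2.03, 1.97, 1.67 and 1.93 and then 3.12, 2.45, 3.31 and 3.3 FPKM with eATP. Values with TGF-β were 5.96, 7.63, 7.42 and 7.84 and then 9.93, 10, 9.44 and 10.7 FPKM (log2(FC) 0.60 ± 0.07 SE, adjusted p = 4.88e-05). Levels of SMAD7 in ATP2 lay under the controls (3.07 to 3.88 FPKM) and those in both TGF-β groups above them. AXIN2 was the 1 Wnt feedback gene of 10 tested that was higher with both, and 3 were higher and 1 (0 to 1) lower in the mean. Of 16 Notch genes 4 were higher and 2 (1 to 2) lower in the mean, and 0 moved the same way with both inducers. With eATP 5 (2 to 6) were higher and 0 lower, and with TGF-β 1 (0 to 1) was higher and 2 (1 to 3) lower. In the latter list JAG1, the member with the highest FPKM, had 0.03 ± 0.08 (SE, adjusted p = 0.884).

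Genes tied to FOXO and nutrient withdrawal had 1 (1 to 2) higher and 7 lower of 20 in the mean, and 1 higher and 4 lower with both inducers. With eATP 2 (4 without TGF2 replicate 1) were higher and 9 lower (list median -0.49). With TGF-β 3 were higher and 4 (8 without TGF2 replicate 1) lower (list median 0.08). IRS2, which couples the insulin receptor to phosphoinositide kinase, stood at 9.07, 9.59, 9.24 and 9.27 FPKM after 2 h of eATP and at 5.69, 5.52, 5.73 and 5.51 after 6 h. With TGF-β it stood at 4.07, 4.47, 4.42 and 4.9 and then 2.48, 2.77, 2.64 and 2.53 FPKM. The fold changes were close (1.66 and 1.65, log2(FC) -0.73 ± 0.05 SE, adjusted p = 9.17e-08), and all 6 h libraries lay under the controls (6.08 to 6.98 FPKM), as did TGF2. ARRDC2, an arrestin-domain gene, fell from a range of 7.56 to 8.17 FPKM at 2 h to one of 5.74 to 6 at 6 h with eATP and from a range of 19.4 to 25.6 FPKM at 2 h to one of 9.35 to 11.7 at 6 h with TGF-β (log2(FC) -0.71 ± 0.07 SE, adjusted p = 4.55e-06). KLF9, a glucocorticoid-responsive Kruppel-like factor, fell from a range of 1.1 to 1.19 FPKM at 2 h to one of 0.487 to 0.563 at 6 h with eATP and stood at 0.564, 0.906, 1.26 and 1.32 and then 0.529, 0.749, 0.565 and 0.537 with TGF-β, where the groups overlapped (log2(FC) -0.91 ± 0.15 SE, adjusted p = 0.000452). Its TGF-β call was lost on leaving out any 1 of replicates 1 to 4 of ATP2, replicates 3 and 4 of TGF2, and replicates 1, 3 and 4 of TGF6 (adjusted p up to 0.131), and also with no filter and in limma on log2(FPKM + 0.1). TSC22D3 (GILZ), also glucocorticoid-responsive, rose from a range of 0.856 to 1.09 FPKM at 2 h to one of 1.49 to 2.06 at 6 h with eATP and from a range of 1.97 to 2.8 FPKM at 2 h to one of 3.47 to 4.15 at 6 h with TGF-β (log2(FC) 0.77 ± 0.10 SE, adjusted p = 6.34e-05).

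In the lists of stress genes, CTH and SLC30A1 alone moved the same way with both inducers in the fit of all libraries. The share over all genes tested was 3.6%, so these small counts do not set the lists apart. NRF2 targets, which are constitutively high in A549 through loss of KEAP1, had 10 (5 to 13) of 22 lower in the mean, with a list median of -0.18. With eATP 4 were lower and with TGF-β 6, and without TGF2 replicate 1, 2 were lower with both. AKR1B10, an aldo-keto reductase and the member with the highest FPKM, changed by -0.03 ± 0.06 (SE, adjusted p = 0.842) with eATP and by -0.32 ± 0.06 (SE, adjusted p = 0.00143) with TGF-β. ATF4 targets had 6 (10 without TGF2 replicate 1) higher and 2 (1 to 2) lower of 21 in the mean, and 1 (0 to 1) lower with both inducers, while without TGF2 replicate 1, 2 were also higher with both. The lower gene was CTH, the cystathionine gamma-lyase gene (log2(FC) -0.89 ± 0.17 SE, adjusted p = 0.00154). Its eATP call was lost on leaving out any 1 of replicates 1, 2 and 4 of ATP2 and replicates 1, 3 and 4 of ATP6 (adjusted p up to 0.111), and also with no filter. Hypoxia genes had 3 higher and 4 (2 to 5) lower of 16 in the mean, and without TGF2 replicate 1 there were 1 higher and 1 lower with both. In this list DDIT4, an inhibitor of mTORC1, changed by 1.34 ± 0.10 (SE, adjusted p = 6.46e-07) with eATP and by 0.03 ± 0.10 (SE, adjusted p = 0.921) with TGF-β. ANGPTL4, a secreted lipase inhibitor of the same list, changed by -0.89 ± 0.23 (SE, adjusted p = 0.0179) with eATP and by 0.72 ± 0.22 (SE, adjusted p = 0.0494) with TGF-β, opposite signs that gave -0.09 ± 0.16 (SE, adjusted p = 0.802) in the mean. The p53 targets had 3 (5 without TGF2 replicate 4) higher and 4 lower of 22 in the mean, and at most 1 moved the same way with both when 1 library was left out, with CDKN1A (p21) at -0.05 ± 0.06 (SE, adjusted p = 0.623). TNFRSF10B, a death receptor of this list, changed by -0.65 ± 0.09 (SE, adjusted p = 0.000335) with eATP and by 0.08 ± 0.09 (SE, adjusted p = 0.722) with TGF-β. Heat shock chaperones had 3 (5 without TGF2 replicate 1) higher and 1 (2 without TGF2 replicate 1) lower of 15 in the mean, and without TGF6 replicate 4 there were 1 higher and 1 lower with both. The unfolded protein response had 1 (2 without TGF2 replicate 1) lower of 16, which without TGF2 replicate 1 included 1 lower with both, with HSPA5 (BiP) at 0.04 ± 0.05 (SE, adjusted p = 0.605). Of 6 genes of metallothioneins and zinc handling that passed the filter 1 (0 to 1) was higher and 2 (1 to 2) lower. The zinc exporter SLC30A1 was lower with both (log2(FC) -0.57 ± 0.09 SE, adjusted p = 0.000276), with the eATP call lost on leaving out any 1 of replicates 1 to 4 of ATP2, replicates 1 to 4 of ATP6, and replicates 1 to 4 of TGF6 (adjusted p up to 0.119), and also with no filter, with library totals alone and in both limma fits.

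Among RNA regulators, mRNA decay genes had 2 (1 to 2) higher and 2 (4 without TGF2 replicate 1) lower of 15 in the mean, and 1 (0 to 1) higher with both. Without TGF2 replicate 1, 1 was also lower with both. Over all genes tested 7.94% were higher and 9.37% lower in the mean, and 3.6% moved the same way with both. ZFP36L1, which binds AU-rich elements, rose from a range of 22.5 to 24.8 FPKM at 2 h to one of 31.1 to 34.3 at 6 h with eATP. TGF-β gave 32.2, 49.3, 50.1 and 47.6 and then 61.1, 55.3, 51.1 and 60.2 FPKM, where replicate 1 of TGF2 was far under the rest of its group (log2(FC) 0.42 ± 0.07 SE, adjusted p = 0.000992). The TGF-β call was lost on leaving out any 1 of replicates 1, 2 and 4 of TGF6 (adjusted p up to 0.0656), and also with library totals alone and in both limma fits. Splicing factors had 4 higher and 3 lower of 20. The kinase CLK4, which phosphorylates SR proteins, rose 1.71-fold and 1.42-fold (log2(FC) 0.64 ± 0.08 SE, adjusted p = 7.03e-05), and the SR protein gene SRSF5 fell 1.43-fold and 1.5-fold (log2(FC) -0.55 ± 0.07 SE, adjusted p = 4.96e-05). Host genes of small RNAs had 2 (4 without TGF2 replicate 1) higher and 1 lower of 17 in the mean, and without TGF2 replicate 1, 2 were higher with both. Of 38 KRAB zinc finger genes 1 (0 to 2) was higher and 6 lower in the mean, and 2 (1 without ATP2 replicate 4) were lower with both. ZNF274, whose product recruits SETDB1 to zinc finger gene clusters, fell from a range of 2.77 to 3.08 FPKM at 2 h to one of 1.72 to 1.85 at 6 h with eATP and from a range of 2.82 to 3.35 FPKM at 2 h to one of 1.96 to 2.4 at 6 h with TGF-β (log2(FC) -0.55 ± 0.06 SE, adjusted p = 1.27e-05). ZNF14 fell 1.45-fold and 1.51-fold (log2(FC) -0.57 ± 0.10 SE, adjusted p = 0.00071), with the eATP call lost on leaving out replicate 4 of ATP2 (adjusted p = 0.0564). Interferon response genes had 1 (0 to 2) higher and 6 lower of 20, and 1 (0 to 1) lower with both. This was IFI44 (log2(FC) -0.62 ± 0.13 SE, adjusted p = 0.00319), and its call with 1 or the other inducer was lost on leaving out any 1 of replicates 1, 2 and 4 of ATP2, replicates 1, 3 and 4 of TGF2, replicates 1 and 4 of ATP6, and replicates 1 to 4 of TGF6 (adjusted p up to 0.118), and also with no filter.

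**Figure D4:**
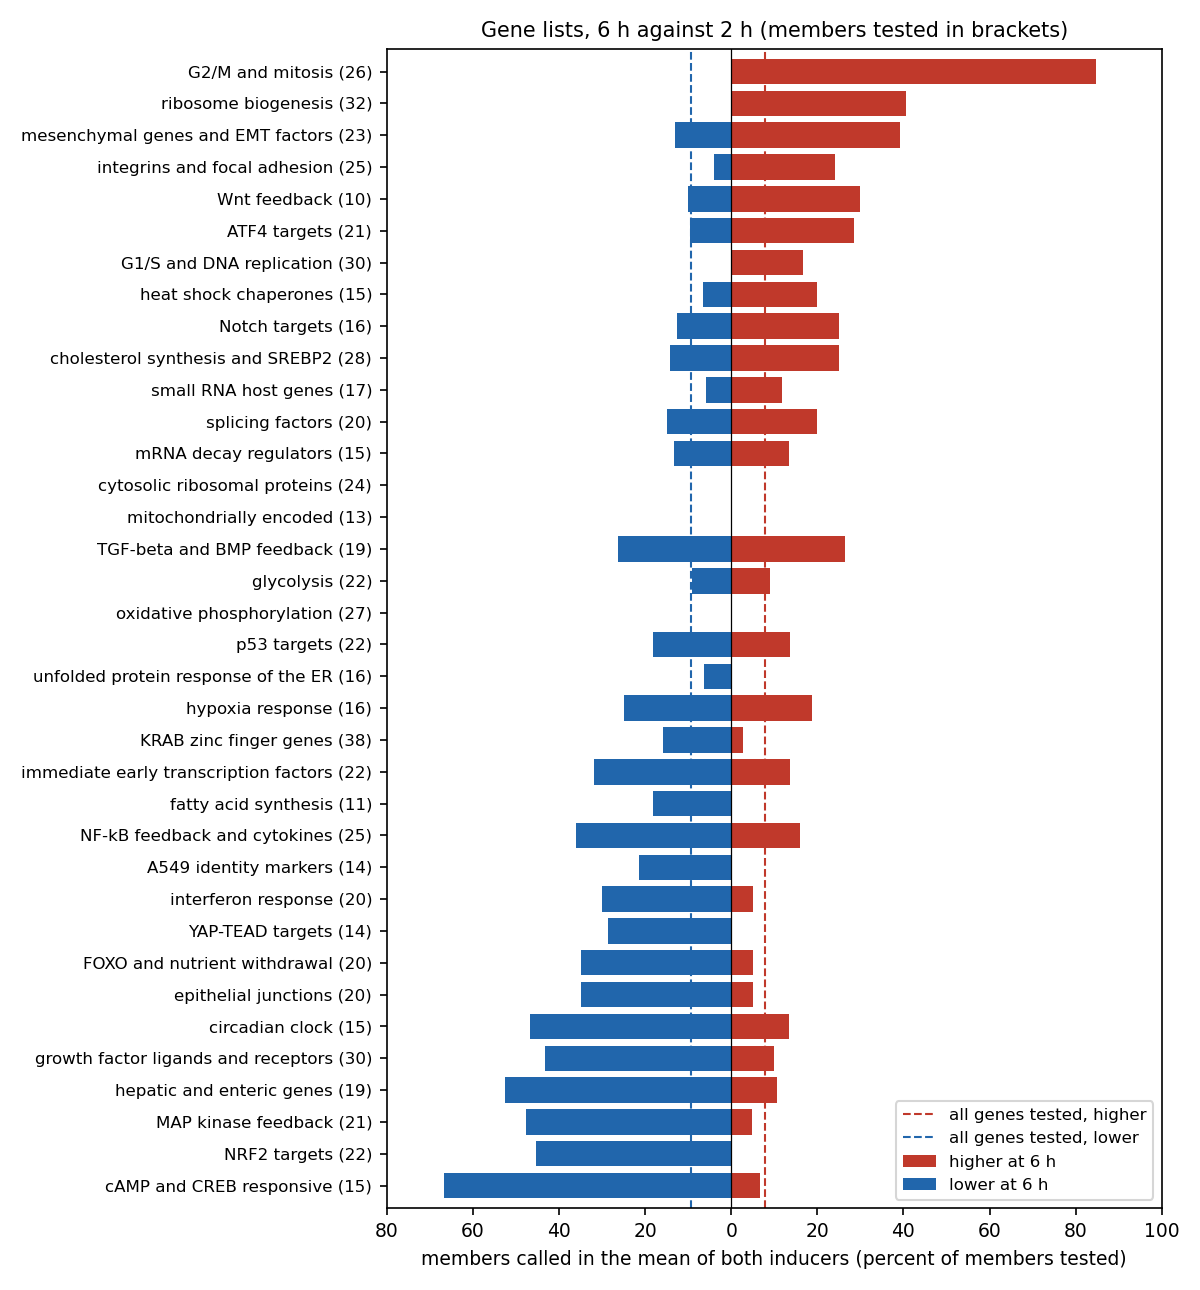
Bars give, for each gene list with at least 10 tested members, the percent called higher (red, to the right) and lower (blue, to the left) at 6 h in the mean of both inducers. Dashed lines mark the shares over all genes tested, 7.94% higher and 9.37% lower; the G2/M list reaches farthest to the right and the cAMP and CREB list farthest to the left.

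Markers of other cell types were low, with exceptions. Of 10 fibroblast markers 4 were tested, and the summed level of the list was 15.7 to 18.7 FPKM in TGF6, 7.09 to 7.89 in TGF2, 2.26 to 2.84 in ATP2 and 1.31 to 2.03 in ATP6. With TGF-β most of it was COL1A1, which changed by -0.94 ± 0.10 (SE, adjusted p = 1.32e-05) with eATP and by 1.50 ± 0.10 (SE, adjusted p = 2.81e-07) with TGF-β, while POSTN had a count of 0 in all 16 libraries. Of 12 leukocyte markers 5 were tested, with CD68 the highest at 1.79 to 6.22 FPKM. CD14, a lipopolysaccharide co-receptor that epithelial cells can also make, was lower with both inducers (log2(FC) -1.06 ± 0.17 SE, adjusted p = 0.000455), with the eATP call lost on leaving out any 1 of replicates 2 and 4 of ATP2 and replicates 1 and 4 of ATP6 (adjusted p up to 0.0693). The summed leukocyte marker level was 5.81 to 8.78 FPKM in ATP2, 5.93 to 8.11 in ATP6, 7.04 to 10.2 in TGF2 and 4.08 to 6.56 in TGF6. Of 12 alveolar and airway markers 4 were tested, and the sum over the list lay between 0.882 and 2.24 FPKM in all 16 libraries. Of 8 endothelial markers 2 were tested, and the sum over the list was 2.95 to 3.77 FPKM in TGF6 and at most 1.55 in the other groups, mostly ESAM (1.63 ± 0.21 (SE, adjusted p = 0.00012) with TGF-β, -0.51 ± 0.21 (SE, adjusted p = 0.146) with eATP). The part of other cells in these results was not tested.

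The genes that moved the same way were also set beside all genes tested in further features. The longest annotated transcript of each gene had a median length of 3722 bases in the genes higher with both inducers and 3682 in those lower, beside 2638 over all genes tested. The lengths of the transcripts expressed here were not measured. Median genomic spans were 30.6 kb, 45.1 kb and 18.3 kb. Protein-coding genes made up 98%, 91.6% and 69%, and the median level was 6.28, 1.97 and 1.86 FPKM. Longer and more abundant transcripts collect more counts, and the part of depth in these differences was not tested. Across 14655 genes the mean change had r = 0.00896 with log2 transcript length, and r = -0.0855 without TGF2 replicate 1. The control level had no part in the choice of genes, but the 2 and 6 h means did. It was nearer to the 6 h mean than to the 2 h mean with both inducers in 140 of the 249 genes that rose (56.2%) and in 155 of the 454 that fell (34.1%), beside 28.9% of all genes tested. The genes were chosen to move the same way with both inducers, which by itself raises the share counted with both. The 28.9% is therefore not a like background. Taken by inducer these shares were 71.5% and 60.4% with eATP, beside 56.4%, and 67.9% and 44.3% with TGF-β, beside 47.8%. EGR1, AXIN2 and CDC20 were examples of genes that rose with the control nearer to 6 h for both inducers, and NR4A3, ATF3 and ANKRD1 of genes that fell.

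Promoter windows from RefSeq (GRCh38.p14, 250 bases before to 50 after the start) could be matched for 199 of the 249 and 330 of the 454 genes, and 13 motifs were searched on both strands. The AP-1 motif TGANTCA was in 4.52% of promoters of genes higher with both inducers and in 8.18% of those lower, beside 4.93% of all 11113. TTTGAA, the CHR element of cell cycle genes, was in 15.1% and 10.3%, beside 9.77%. CCAAT was in 43.7% and 39.4%, beside 36.3%, and TCACNCCA, a sterol regulatory element, in 6.03% and 3.03%, beside 3.45%. The half-site TGACG, which the full cyclic AMP response element contains, was in 28.1% and 25.8%, under the 33.6% of all promoters, and the E-box CACGTG in 11.1% and 9.09%, beside 10% of all. The EGR motif was in 1.51% and 1.82%, beside 1.28%. AAAGGTCA, the NBRE bound by NR4A factors, was in 0 of 199 and in 1.52%, beside 0.783%, and the D-box TTATGTAA in 0 of 199 and in 0.909%, beside 0.459%. The LXR element was in 0 of the 11113. Matches to CArG, kB and full cyclic AMP response elements are given above. A match describes the letters of these windows and is not a bound site.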

How the data were processed

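Polyadenylated RNA of A549 cells was sequenced by the authors, and their processing notes list the tools HISAT2, StringTie and edgeR with no version. A genome build was not given in the sources used here. One deposited table gives raw read counts and FPKM per gene, and counts on overlapping genes, antisense genes or close paralogs may be shared between them. Genes with at least 0.1 FPKM in 4 or more of the 16 treated libraries were kept, and the 26265 genes with a count of 0 in all 16 dropped out. Counts were fitted with edgeR 4.0.16 (R 4.3.3; TMM scaling, quasi-likelihood test, 4 group means, 12 residual df), and p-values were adjusted by Benjamini-Hochberg over 19523 genes at a threshold of 0.05. FPKM, in which the authors list 0.0001 for genes without signal, served to show levels. The contrast was the mean of ATP6 and TGF6 minus that of ATP2 and TGF2. SE is the log2 fold change divided by the square root of F. Alternatives were other filters, scalings, thresholds and samples, a replicate block, DESeq2 1.42.0, and limma 3.58.1 on log2(FPKM + 0.1) and log2(FPKM + 1). The fit was tested on simulated data. Named genes were the 12 largest rises and 12 largest falls among genes moving the same way, without overlap of 2 and 6 h and with 1 FPKM or more on average in the higher group of each inducer. To these came up to 4 genes moving the same way from each of 42 lists, by size of change, or 2 by level where a list had none. Others are marked as chosen after their values were seen, as were the promoter motifs. The members and gene lists were chosen with earlier results of these data known. The 4 replicates per group follow the labels, whereas the study's methods give a smaller number of replicates per condition; which is right was not settled, and all 4 libraries were used. Some genes are not reported here.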

Additional observations from a re-analysis of the deposited data

Results flagged for a closer look

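The size of the change from 2 to 6 h differed between the inducers in 31 named genes by edgeR's quasi-likelihood test of the difference (adjusted p 2.09e-07 to 0.0476). Each value is the log2 change with TGF-β minus that with eATP. Among genes lower with both inducers, negative values, a larger fall with TGF-β, were seen in TJP3 -1.45, PTPRH -1.30, PER2 -0.69, BHLHE41 -0.93, PDE10A -0.67, ARRDC2 -0.61, FGA -0.89, FGG -0.56, FGB -0.53, FGFR2 -0.86, AREG -0.66 and CPS1 -0.70. Positive values, a larger fall with eATP, were seen in DUSP14 0.69, CXCL8 0.98, ABCG1 1.69 and ABCA1 0.88. Among genes higher with both, STC2 0.97 and PODXL 1.00 rose more with TGF-β. The rise was larger with eATP in EGR1 -1.44, AXIN2 -0.98, INSIG1 -0.84, ZNF488 -0.82 and CCND1 -0.39. In genes that did not move the same way, the difference was TNFRSF10B 0.72, ANGPTL4 1.61, DDIT4 -1.31, AKR1B10 -0.29, COL1A1 2.43, ESAM 2.14, E2F2 -2.13 and CDC6 -1.16. COL1A1 had the largest difference among those named, and the cause of these differences was not tested.

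Of 452 groups of 4 examined, 1 library's FPKM lay far from the other 3 in 29, with the range of those 3 in brackets. Chance marks about 1 in 20 groups this way. TGF2 replicate 1 was the library in 8 of them, low in each: PODXL at 5.81 (8.4 to 8.51), DUSP16 at 12.7 (18.2 to 18.9), ZFP36L1 at 32.2 (47.6 to 50.1), PDE10A at 1.4 (1.93 to 1.94), SOX4 at 26.2 (29.4 to 29.9), EREG at 7.95 (14.2 to 15.1), F5 at 1.22 (2.39 to 2.53) and CDH2 at 7.71 (16.4 to 18). In ATP2 replicate 1 this was ATF3 at 4.02 (2.69 to 2.71), AXIN2 at 0.856 (0.617 to 0.646), CDKN1A at 31.3 (29.4 to 29.6) and CDH1 at 9.73 (12.8 to 13.2). In ATP2 replicate 4 this was SLC30A1 at 18.2 (17.5 to 17.5) and SNHG29 at 60 (55.7 to 56.3). In ATP6 replicate 2 this was PLEKHO2 at 1.26 (1.53 to 1.57) and FGA at 29.9 (26.9 to 27.4). In ATP6 replicate 3 this was DUSP14 at 14.4 (13.2 to 13.3), CXCL1 at 198 (174 to 175), JAG1 at 10.2 (11.2 to 11.3), RPL19 at 881 (699 to 711), EREG at 49.5 (58.7 to 59.9), CPS1 at 15.5 (18.7 to 18.8) and F5 at 1.21 (1.6 to 1.67). In ATP6 replicate 4 this was ZFP36L1 at 34.3 (31.1 to 31.6). In TGF2 replicate 4 this was EGR1 at 7.58 (3 to 3.49) and E2F2 at 1.53 (1.87 to 1.93). In TGF6 replicate 2 this was KLF9 at 0.749 (0.529 to 0.565) and SQLE at 44 (46.7 to 47.2). In TGF6 replicate 4 this was PDE3A at 5.65 (4.38 to 4.55).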

How the results depend on the processing

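No named gene called in the main fit or in an alternative reversed its direction in the mean, and no gene moving the same way did so. Changes of sign in genes called in neither fit were not counted. In the mean of both inducers, of 3046 values for 113 named genes, 3023 stayed on their side of the threshold, 18 lost it and 5 gained it. The call of moving the same way with both was lost more often, in 173 of 2185 pairs of a named gene and an alternative and in 26 of the 81 named genes that had it, 25 of them on leaving out 1 library. It was lost in 11 genes with no filter (adjusted p 0.0513 to 0.0911), in 6 with library totals alone (0.0503 to 0.0699), in 1 with upper-quartile scaling (0.0846), in 1 with all 20 libraries (0.0567) and in 5 and 4 in limma on log2(FPKM + 0.1) and log2(FPKM + 1) (0.0544 to 0.0731). At an adjusted p under 0.01 the counts higher and lower were 834 and 1061 in the mean, 532 and 655 with eATP, 486 and 660 with TGF-β, 308 and 243 for the difference between inducers, and 100 and 208 the same way with both. Asking for a change of at least 1 on the log2 scale left 96 and 397, 154 and 385, 137 and 446, 242 and 218, and 24 and 164. With each inducer fitted apart, 1640 genes were higher with eATP, 350 higher and 532 lower with TGF-β, and 104 and 280 moved the same way. DESeq2 called 825 genes lower in the difference and 382 higher with both. Leaving out 1 library at a time gave 1244 to 2161 higher and 1553 to 2279 lower in the mean, 759 to 1759 and 931 to 1635 with eATP, 679 to 1330 and 934 to 1704 with TGF-β, 430 to 787 and 372 to 944 for the difference, and 184 to 432 and 347 to 684 with both. Every upper end came without TGF2 replicate 1. In all 16 of these fits 119 genes were higher and 255 lower with both inducers, and each fit kept 75.5% to 95.2% of the 703. No filter gave 183 and 335 the same way with both, and library totals alone 194 and 483. The cause of these shifts was not tested.

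Of 24 pairs of treated libraries with the same replicate number, 2 correlated over 0.1 in their deviations from the group means (r -0.228 to 0.168). These were replicates 3 of ATP6 and TGF6 (0.168) and replicates 4 of the same groups (0.109). Replicates 3 and 4 of control, ATP6 and TGF6 also shared the sign of their length relation, while TGF2 replicate 3 and ATP2 replicate 4 had the other sign. Low correlations do not show that the libraries were unpaired, and the labels do not say. With the replicate block 1326 genes were higher and 1567 lower in the mean, 877 and 1010 with eATP, 807 and 1011 with TGF-β, 424 and 369 in the difference, and 197 and 358 the same way with both. The block ended the call of 9 named genes, LIVAR, BHLHE41, KLF9, CTH, SLC30A1, IFI44, ACTA2, ITGB8 and CD14 (adjusted p 0.0537 to 0.0844).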

Other observations

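Families looked at after the values were seen held genes lower at 6 h with both inducers, among them PDE10A, already named above. Over all genes tested 9.37% were lower in the mean and 2.33% with both. As the families were picked with these values known, their counts describe the members and are not support. Of 15 tested phosphodiesterases of cyclic nucleotides (PDE1 to PDE11), 10 were lower and 1 higher in the mean, and PDE8A, PDE10A, PDE1A, PDE9A, PDE7B and PDE3A were lower with both, with a family median of -0.51. PDE7B, which hydrolyses cyclic AMP, stood at 2.88, 3.22, 2.69 and 3.02 FPKM after 2 h of eATP and at 1.23, 1.21, 1.26 and 1.14 after 6 h. With TGF-β it stood at 1.61, 2.45, 2.41 and 2.06 and then 1.08, 1.01, 0.888 and 1.08 FPKM (log2(FC) -1.15 ± 0.08 SE, adjusted p = 3.2e-07). PDE3A, a phosphodiesterase inhibited by cyclic GMP, was at 11.2 to 11.7 and then 4 to 5.31 FPKM with eATP, and at 4.71 to 10.3 and then 4.38 to 5.65 with TGF-β, where the groups overlapped (log2(FC) -1.02 ± 0.12 SE, adjusted p = 4.02e-05). These enzymes lower the cyclic nucleotides that the CREB-responsive genes answer to, which is background and not a result.

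Of 28 tested complement and coagulation genes, 15 were lower and 1 higher in the mean, and TFPI, F7, C5, C4BPA, C3, F2RL1 and F5 were lower with both, with a family median of -0.40. C3, the central complement component, stood at 28.2, 28.1, 23.8 and 24.5 FPKM after 2 h of eATP and at 21.3, 20.6, 19.7 and 22.1 after 6 h. With TGF-β it stood at 22.5, 27.4, 26 and 27.1 and then 18.5, 16.4, 15.1 and 19.6 FPKM (log2(FC) -0.42 ± 0.06 SE, adjusted p = 0.000209). Its eATP call was lost on leaving out any 1 of replicates 1 and 2 of ATP2 and replicates 2 and 3 of ATP6 (adjusted p up to 0.0764), and also with no filter. C5 changed by -0.50 ± 0.09 (SE, adjusted p = 0.00135) in the mean, with the call of 1 or the other inducer lost on leaving out any 1 of replicates 2 and 3 of ATP2, replicate 3 of TGF2, and replicate 3 of ATP6 (up to 0.0816). F5, coagulation factor V, changed by -0.74 ± 0.14 (SE, adjusted p = 0.00152), with the same kind of loss on leaving out any 1 of replicates 1 and 2 of ATP2, replicates 2, 3 and 4 of TGF2, replicate 3 of ATP6, and replicates 1, 2 and 3 of TGF6 (up to 0.0765). Of 18 genes of chloride and bicarbonate transport, 6 were lower and 2 higher in the mean, and the channel genes CFTR and SCNN1A, the transporters SLC12A2 and SLC26A9 and the carbonic anhydrase CA2 were lower with both, with a family median of -0.05.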
